A study of Danio rerio with 18 samples.

Results

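Claudins, keratins and other junction genes were examined in the dissected digestive organs of zebrafish larvae, unfed or after a meal. Members were chosen by a rule on names, with earlier results of these data known. They are genes whose symbol begins as a claudin, keratin, tight junction, cadherin, desmosome or plakin gene of interest. Each has an average of at least 0 on the log2 scale of CPM, the read count scaled to a common library size. Of 65 symbols with such a name, 56 passed this level, out of 12828 genes measured at it. They comprised 22 claudins, 8 keratins, 13 scaffolds and tetraspan proteins of tight junctions, and 13 adhesion and desmosome genes.

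Epithelial cells are sealed to each other by tight junctions, in which claudins form the paracellular barrier and its ion-selective pores. Occludin and the MARVEL domain proteins span the same membranes, and ZO scaffolds and cingulin tie them to actin. Below them, cadherins and desmosomes hold cells together, and plakins link desmosomes to keratin filaments. In the gut these structures decide what passes between enterocytes while nutrients are taken up through the cells.

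The larvae were wild type of the AB strain, 6.5 days post fertilization. The 18 samples fell into 6 groups of 3, each sample being the dissected intestine, liver and pancreas from 10 larvae, prepared independently from pairwise crosses. In the high-fat cohort, larvae were unfed or were taken 1 h or 4 h after a 5% egg yolk emulsion, and in the low-fat cohort they were unfed or were taken 1 h or 4 h after 10% egg white. Every fed group was compared with the unfed larvae of its own cohort, so the 1 h and 4 h comparisons of a meal share their controls. Pooled organs cannot tell a change within cells from a change in the share of a cell type or organ.

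Levels in each sample were not analysed here. The authors' deposited table gives 1 average level for each transcript, and edgeR's log2 fold change with its p-value, raw and adjusted, for each comparison. Each gene is shown by its transcript with the highest average. Levels are per library and not per transcript length, so levels of different genes are not ranked as expression. Each 95% interval below was derived from the fold change and the p-value in the authors' deposited table. Standard errors implied for members lay between 0.356 and 0.397 on the log2 scale, nearly the same for all of them. The intervals thus reflect an error common to genes of like abundance, not each gene's own spread between pools, and read depth is unknown.

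None of the 56 members passed an adjusted p of 0.05 in any of the 4 comparisons. Some junction and filament genes outside the naming rule did, and are given further below. In the authors' deposited table, 0 of 56 members were called at 1 h after the high-fat meal, against 3.73% of all measured genes, and 0 at 4 h, against 1.36%. After the low-fat meal the counts in the authors' deposited table were 0 of 56 at 1 h, against 4.06%, and 0 at 4 h, against 0.444%. At an unadjusted p under 0.05, edgeR's values in the authors' deposited table gave 5 members at 1 h after the high-fat meal (8.93%, against 14.5% of all genes) and 2 at 4 h (3.57%, against 7.77%). The same limit gave 2 members at 1 h after the low-fat meal (3.57%, against 14.2%) and 1 at 4 h (1.79%, against 2.55%) in the authors' deposited table. Of the 101 transcripts of these genes, at any level, 0 passed an adjusted p of 0.05 in any comparison. A log2 fold change above 1 in size was given by the authors' deposited table for 2 members at 1 h after the high-fat meal (against 6.96% of all genes) and for 0 at 4 h (3.33%). Following low-fat feeding it was given for 1 member at each time in the authors' deposited table (6.63% of all genes at 1 h and 1.05% at 4 h).

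The centre of the group stayed near that of all genes. Median log2 fold changes of the 56 members in the authors' deposited table were 0.04 (1 h) and 0.09 (4 h) following high-fat feeding, and 0.07 and 0.00 following low-fat feeding. Over all 12828 genes the medians were -0.01, 0.01, 0.02 and 0.02. A change had to reach a size of 1.17, 1.28, 1.16 and 1.42 (high-fat 1 h and 4 h, then low-fat 1 h and 4 h) to be called for any gene in the authors' deposited table. Among these genes no smaller change was called, at this precision and with the adjustment over all transcripts. The 95% interval lay wholly within a log2 fold change of -1 to 1, less than a doubling or halving, for 27 members (48.2%) at 1 h and 30 members (53.6%) at 4 h following high-fat feeding. It did so for 27 (48.2%) and 44 members (78.6%) after the low-fat meal. Over all genes these shares were 48.1%, 59.1%, 48.1% and 71.3%.

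**Figure D1:**
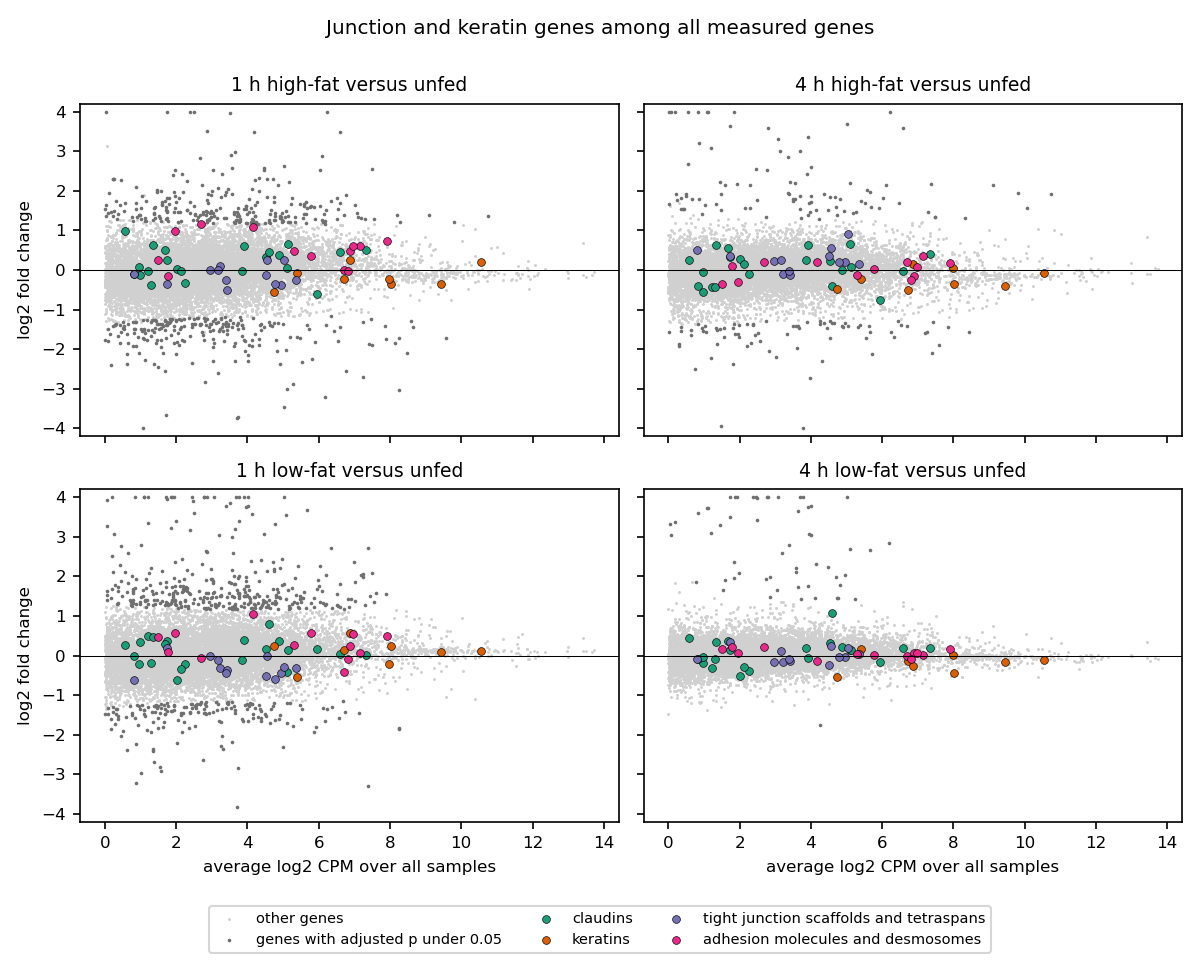
Log2 fold change over unfed larvae against average log2 CPM for all 12828 measured genes, 1 panel for each comparison; changes beyond 4 in size are drawn at 4. Coloured points are the 56 junction and keratin genes, which lie among the light grey genes that were not called.

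Claudins were led in read share by cldn15la, with an average of 162 CPM in the authors' deposited table, a claudin of the cldn15 family used to mark the zebrafish intestinal epithelium. Its log2 fold changes in the authors' deposited table were 0.50 (1 h) and 0.40 (4 h) following high-fat feeding and 0.02 and 0.19 following low-fat feeding, and none passed. At 1 h after the low-fat meal its interval of -0.68 to 0.72 reached neither a doubling nor a halving. For cldnc (96.1 CPM) the authors' deposited table gave 0.44 and -0.01 after the high-fat meal and 0.03 and 0.20 after the low-fat meal. The other abundant member of the cldn15 family, cldn15a (61.9 CPM), belongs to the claudins that form ion pores in the gut. Following high-fat feeding cldn15a had -0.59 at 1 h and -0.76 at 4 h in the authors' deposited table, the lowest value of any member at both times, with unadjusted p of 0.097 and 0.034 and adjusted p of 0.61 and 0.57. After the low-fat meal it had 0.15 and -0.15 there.

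The largest claudin values were those of cldna and cldnb. At 1.49 CPM cldna had the lowest average of any member, with 0.97 at 1 h after the high-fat meal in the authors' deposited table (unadjusted p = 0.013, adjusted p = 0.21). Its values in the other comparisons of the authors' deposited table were 0.25, 0.26 and 0.45 (high-fat 4 h, low-fat 1 h and 4 h). For cldnb (24.3 CPM), a claudin known from the lateral line of the larva, the authors' deposited table gave 0.80 at 1 h and 1.08 at 4 h after the low-fat meal. The unadjusted p were 0.026 and 0.0027, and the adjusted p 0.31 and 0.35, so neither passed. After the high-fat meal cldnb had 0.47 and -0.40 in the authors' deposited table. The value at 4 h after the low-fat meal is the largest of any member in that comparison, 2.12-fold, with an interval of 0.37 to 1.79 on the log2 scale.

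At 4 h after the high-fat meal cldn15lb (34.3 CPM) had 0.67 and cldne 0.62 in the authors' deposited table, with adjusted p of 0.73 and 0.81. For cldn2, which in mammals forms a pore for cations and water, the authors' deposited table gave -0.62 (1 h) and -0.51 (4 h) after the low-fat meal, and 0.03 and 0.28 after the high-fat meal. Claudins known mainly from other tissues were measured at low levels, with 1.76 CPM for cldn5a and 2.47 for cldn5b, of endothelium, and 4.35 for cldnk, of myelin, in the authors' deposited table. Their log2 fold changes in the authors' deposited table lay between -0.43 and 0.15. The remaining claudins (cldnh, cldni, cldn7b, cldn12, cldn11a, cldn11b, cldn10b, cldn15b, cldnf, cldn1 and cldnj) lay between -0.56, for cldn11a at 4 h after the high-fat meal, and 0.67, for cldnh at 1 h after it, in the authors' deposited table. Over the 22 claudins the medians of the log2 fold changes were 0.16, 0.12, 0.15 and 0.13 (high-fat 1 h and 4 h, low-fat 1 h and 4 h), with 14, 12, 14 and 12 claudins above 0. Of all 12828 genes 6257, 6574, 6724 and 6878 lay above 0, in the same order.

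**Figure D2:**
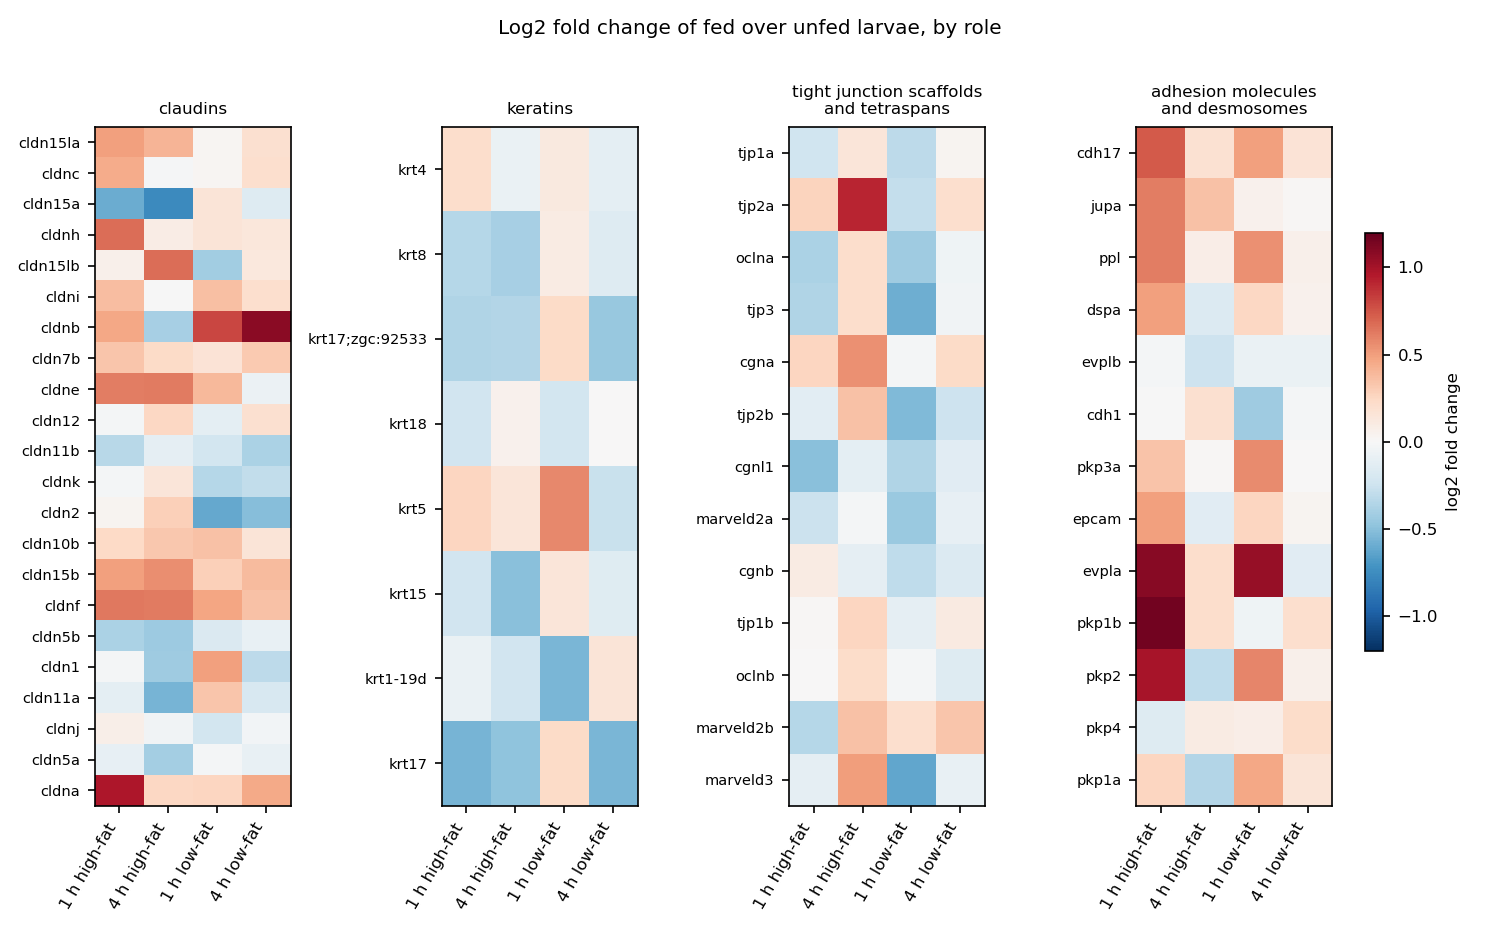
Log2 fold change of each of the 56 members (rows, ordered by average CPM within a role) in the 4 comparisons with unfed larvae (columns). Colours run from blue (lower after the meal) to red (higher); the strongest reds are pkp1b (1.15), evpla (1.09 and 1.05) and cldnb (1.08), none of which passed.

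None of the 8 keratins among the members passed in any comparison. For krt4, a type II keratin of simple and surface epithelia, the authors' deposited table gave an average of 1503 CPM and log2 fold changes of 0.21, -0.08, 0.12 and -0.11 (high-fat 1 h and 4 h, low-fat 1 h and 4 h). All 4 of its intervals lay within -1 to 1, the highest bound being 0.90. The simple-epithelium pair krt8 and krt18 had 693 and 252 CPM. There krt8 had -0.34, -0.40, 0.10 and -0.15, and krt18 had -0.23, 0.05, -0.22 and 0.00 in the authors' deposited table, in the same order. None of these values passed, and of krt8 the intervals after the high-fat meal reached -1.04 and -1.09.

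Type I keratins krt17 and krt15 and the type II keratin krt5 are better known from skin. The authors' deposited table gave for krt5 (117 CPM) 0.26 and 0.15 after the high-fat meal, then 0.58 at 1 h and -0.27 at 4 h after the low-fat meal. For krt15 (105 CPM) the authors' deposited table gave -0.23, -0.50, 0.15 and -0.15. The symbol krt17 stands on a row of its own (26.7 CPM) and on a row joined with zgc:92533 (259 CPM). Both rows span chromosome 19 from 5986623 to 6004973 of build Zv9 and overlap cyt1, so their reads may be shared. Values in the authors' deposited table were -0.55, -0.49, 0.23 and -0.55 for krt17 alone, and -0.36, -0.35, 0.23 and -0.45 for the joined row. For krt1-19d the authors' deposited table gave -0.55 at 1 h after the low-fat meal and values between -0.23 and 0.16 otherwise. Of the 8 keratins, 6 lay below 0 in each comparison except 1 h after the low-fat meal, where 2 did. Of all 12828 genes 6571, 6254, 6104 and 5950 lay below 0 (high-fat 1 h and 4 h, low-fat 1 h and 4 h). Both krt17 rows enter the keratin counts and may share reads, so the same locus may be counted more than once. Of the 8 keratins 0 had an unadjusted p under 0.05 in any comparison.

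Tight junction scaffolds and tetraspan proteins did not pass in any comparison either. The ZO scaffold genes tjp1a (41.2 CPM) and tjp2a (32.9 CPM) and the occludin gene oclna (30.9 CPM) had the largest read shares. For tjp2a the authors' deposited table gave 0.26 at 1 h and 0.91 at 4 h after the high-fat meal, the latter 1.88-fold with an interval of 1.16 to 3.07 in fold (unadjusted p = 0.011, adjusted p = 0.31). For low-fat feeding tjp2a had -0.28 and 0.20 in the authors' deposited table. It was the only gene of this role with an unadjusted p under 0.05 in any comparison. For tjp1a and oclna the authors' deposited table gave -0.24, 0.15, -0.31 and 0.03, and -0.38, 0.21, -0.43 and -0.05 (high-fat 1 h and 4 h, low-fat 1 h and 4 h).

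At 1 h after the low-fat meal 12 of the 13 genes of this role lay below 0, with a median of -0.31, against 6104 of all 12828 genes. Of the 13 genes 0 had an unadjusted p under 0.05 there, against 14.2% of all genes. The lowest in the authors' deposited table were marveld3 (-0.63), for a MARVEL protein, and tjp3 (-0.59), for a ZO scaffold, with adjusted p of 0.63 and 0.62. The exception was marveld2b (0.20), a gene for tricellulin, the MARVEL protein of corners where cells meet. At 4 h after high-fat feeding 10 of 13 lay above 0 (median 0.22), against 6574 of all 12828 genes. For the cingulin gene cgna the authors' deposited table gave 0.26, 0.55, -0.02 and 0.23, and for the paracingulin gene cgnl1 it gave -0.50, -0.11, -0.36 and -0.14. The others (tjp1b, tjp2b, oclnb, marveld2a and cgnb) lay between -0.53, for tjp2b at 1 h after the low-fat meal, and 0.35, for tjp2b at 4 h after the high-fat meal, in the authors' deposited table.

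Adhesion and desmosome genes had the largest values of the group at 1 h, and none passed. For pkp1b (6.43 CPM), a plakophilin that joins desmosomal cadherins to desmoplakin, the authors' deposited table gave 1.15 at 1 h after the high-fat meal. This was 2.23-fold with an interval of 1.35 to 3.67 in fold (unadjusted p = 0.0017, adjusted p = 0.061). In the other comparisons pkp1b had 0.21, -0.05 and 0.20 in the authors' deposited table (high-fat 4 h, low-fat 1 h and 4 h). Envoplakin, a plakin that links desmosomes to keratin filaments, is encoded by evpla (17.9 CPM). At 1 h evpla had 1.09 after the high-fat meal (2.14-fold, adjusted p = 0.079) and 1.05 after the low-fat meal (2.06-fold, adjusted p = 0.097) in the authors' deposited table. At 4 h its values in the authors' deposited table were 0.21 and -0.14. Both values of evpla at 1 h missed the threshold.

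For pkp2 (3.89 CPM), another plakophilin, the authors' deposited table gave 0.99 at 1 h after the high-fat meal (unadjusted p = 0.0080, adjusted p = 0.16) and -0.31 at 4 h, then 0.58 and 0.06 after the low-fat meal. The intestinal cadherin gene cdh17 had the largest read share of the role, 240 CPM. Its values in the authors' deposited table were 0.74 and 0.18 after the high-fat meal and 0.49 and 0.16 after the low-fat meal, with an unadjusted p of 0.040 and an adjusted p of 0.39 for the first. The E-cadherin gene cdh1 (104 CPM) had -0.01, 0.19, -0.43 and -0.02 in the authors' deposited table. The plakoglobin gene jupa (142 CPM) had 0.62, 0.35, 0.05 and 0.01, and the periplakin gene ppl (126 CPM) 0.62, 0.08, 0.55 and 0.06, in the authors' deposited table. Desmoplakin, by dspa (118 CPM), had 0.49, -0.16, 0.24 and 0.06, and epcam (39.4 CPM), a surface adhesion protein of epithelia, had 0.49, -0.14, 0.26 and 0.03 in the authors' deposited table. The others (evplb, pkp3a, pkp4 and pkp1a) lay between -0.36, for pkp1a at 4 h after the high-fat meal, and 0.56, for pkp3a at 1 h after the low-fat meal, in the authors' deposited table. Following high-fat feeding 10 of the 13 genes of this role lay above 0 at 1 h, with a median of 0.49, and 4 had an unadjusted p under 0.05 (cdh17, evpla, pkp1b and pkp2). Of all 12828 genes 6257 lay above 0 there, and 14.5% had an unadjusted p under 0.05. At 4 h after the low-fat meal all 13 intervals of the role lay within -1 to 1.

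**Figure D3:**
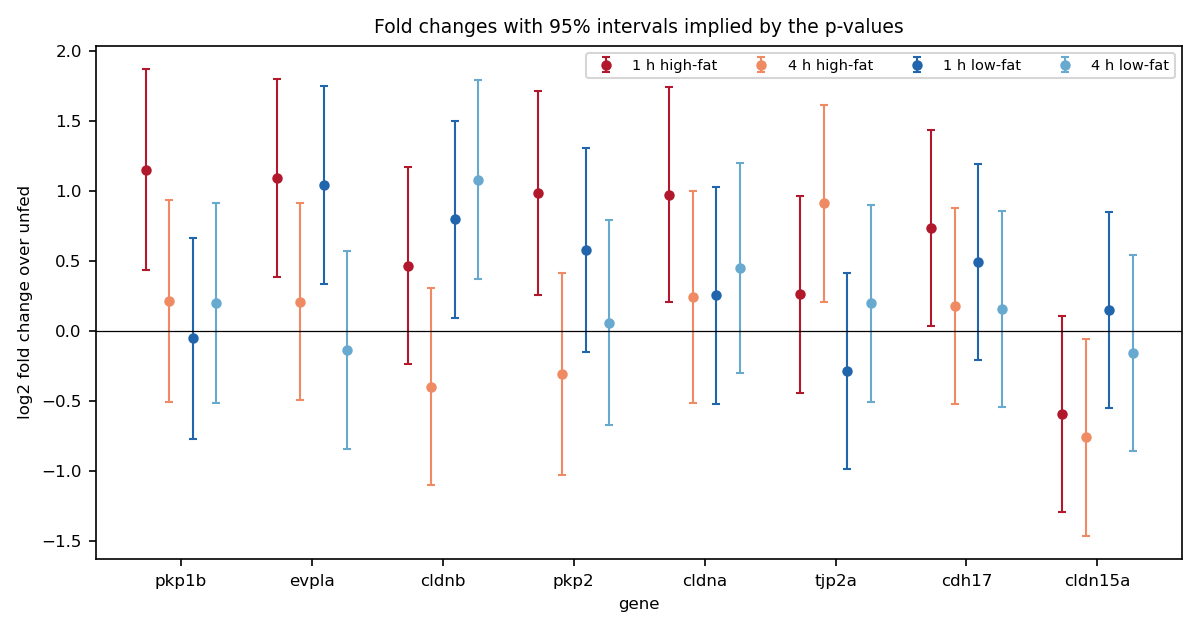
Log2 fold change over unfed larvae for the 8 members with an unadjusted p under 0.05 in any comparison; bars are the 95% intervals implied by the authors' p-values, red after the high-fat and blue after the low-fat meal, darker at 1 h. The values of evpla at 1 h (1.09 and 1.05) lie above its values at 4 h (0.21 and -0.14), and cldnb is highest at 4 h after the low-fat meal (1.08).

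Whether the responses differed between times or meals was tested by subtracting one log2 fold change from the other. An approximate normal test used the implied errors, with Benjamini-Hochberg adjustment over all 12828 genes. The comparisons with unfed larvae were adjusted over all transcripts instead, so the adjusted p-values are not directly comparable. The unfed libraries cancel in the difference between times. One gene passed: pkp2 was lower at 4 h than at 1 h after the high-fat meal, by a difference of -1.29 on the log2 scale (95% interval -2.02 to -0.57, adjusted p = 0.012). That comparison called 6.38% of all genes, against 1 of 56 members (pkp2), and the unadjusted p was under 0.05 for 4 members (7.14%, against 16.6% of all genes). Among those 4 were pkp1b (-0.94, adjusted p = 0.11), evpla (-0.88, adjusted p = 0.14) and cldnb (-0.87, adjusted p = 0.15), which did not pass. Of the 13 adhesion and desmosome genes 11 lay lower at 4 h than at 1 h, with a median difference of -0.56, whereas 12 of the 13 tight junction scaffolds and tetraspans lay higher, with a median difference of 0.39. Of all genes 50.3% lay higher. In the same difference 15 of 19 enterocyte markers lay lower (median -0.42, 5 passed), as did 25 of 29 skeletal muscle markers (median -0.41, 1 passed). Hepatocyte markers lay lower for 12 of 18 (median -0.18, 0 passed) and exocrine pancreas markers for 3 of 13 (median 0.07, 0 passed). The part of these tissues in the member values was not tested.

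After the low-fat meal no member differed between 4 h and 1 h (0 of 56, against 1.89% of all genes), with 5 members at an unadjusted p under 0.05 (8.93%, against 9.58%). The nearest was evpla, with a difference of -1.18 (interval -1.89 to -0.47, adjusted p = 0.053). The others were krt5 (-0.84), cldn1 (-0.80), krt17 (-0.78) and krt1-19d (0.71), with adjusted p between 0.31 and 0.51. Of the tight junction scaffolds and tetraspans 12 of 13 again lay higher at 4 h, with a median difference of 0.28, against 50.7% of all genes. Enterocyte markers lay lower for 16 of 19 genes (median -0.39, 2 passed) and skeletal muscle markers for 24 of 29 (median -0.24, 2 passed). So did hepatocyte markers for 14 of 18 (median -0.33, 0 passed) and exocrine pancreas markers for 13 of 13 (median -0.17, 0 passed). Duct markers lay lower for 4 of 9 (median 0.07, 0 passed).

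Between meals no member differed at 1 h (0 of 56, against 0.85% of all genes) or at 4 h (0 of 56, against 0.468%). At each time 1 member (1.79%) had an unadjusted p under 0.05, against 4.95% and 3.89% of all genes. At 1 h this was pkp1b, whose response to the high-fat meal exceeded that to the low-fat meal by 1.21 (interval 0.19 to 2.22, adjusted p = 0.63). At 4 h it was cldnb, with a difference of -1.48 (interval -2.48 to -0.48, adjusted p = 0.33). All 13 tight junction scaffolds and tetraspans had a larger value after the high-fat than after the low-fat meal at 4 h, by 0.01 to 0.72 with a median of 0.26, against 47.0% of all genes. Of these 13 genes 0 had an unadjusted p under 0.05 for that difference, whose standard error was 0.508 at the median over members. At 1 h 11 of the 13 had the larger value after the high-fat meal, against 47.1% of all genes. So did 10 of 13 adhesion and desmosome genes, 14 of 22 claudins and 2 of 8 keratins at 1 h. For these 3 roles the counts at 4 h were 7, 10 and 5. Of all 56 members 37 at 1 h and 35 at 4 h had the larger value after the high-fat meal. Skeletal muscle markers had the smaller value after the high-fat meal for 28 of 29 genes at 4 h (median -1.01, 0 passed) and for 29 of 29 at 1 h (median -0.87, 3 passed). Enterocyte markers had medians of -0.14 at 4 h and -0.15 at 1 h, with 0 passed. The cohorts also differ in their unfed larvae, so the meal and the cohort cannot be told apart.

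**Figure D4:**
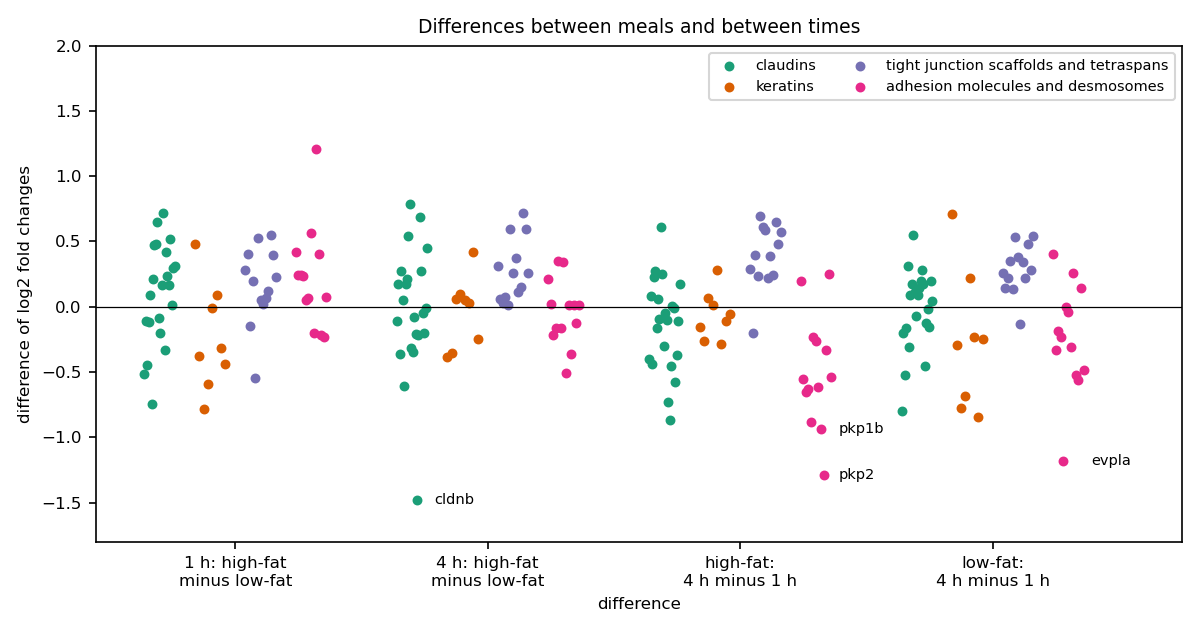
Differences of log2 fold changes between meals (left) and between times (right) for the 56 members, coloured by role. Most points lie within 1 of zero; pkp2 (-1.29, high-fat 4 h minus 1 h) passed the adjusted threshold, whereas cldnb (-1.48), evpla (-1.18) and pkp1b (-0.94) did not.

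Duplicated genes of zebrafish gave pairs of paralogs with values side by side. In 11 pairs and 4 comparisons, the 95% intervals of the paralogs overlapped in 44 of 44 cases. The widest gap in the authors' deposited table was that of cldn15a (-0.76) and cldn15b (0.55) at 4 h after the high-fat meal. Even at that gap of -1.31 the intervals overlapped, so overlap does not show that paralogs agree. Of the envoplakin pair, evplb had -0.02 and -0.08 at 1 h (high-fat, low-fat) in the authors' deposited table. The values of evpla there were near 1, with intervals that overlapped those of evplb. Differences between paralogs were not tested.

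Several members lie next to each other in the genome, which the choice by name did not use. On chromosome 15 of Zv9, cldnj, cldne, cldnf and cldna occupy 2622695 to 2648782. At 1 h after the high-fat meal their log2 fold changes in the authors' deposited table were 0.07, 0.62, 0.63 and 0.97. At 4 h after that meal they were -0.04, 0.62, 0.62 and 0.25. After the low-fat meal they were -0.22, 0.39, 0.47 and 0.26 at 1 h, and -0.03, -0.07, 0.35 and 0.45 at 4 h. None of these passed, and cldnj, cldnf and cldna averaged only 1.95, 2.55 and 1.49 CPM. On chromosome 21, cldnh, cldnc and cldnb occupy 25119353 to 25146898. There the authors' deposited table gave 0.14, 0.20 and 1.08 at 4 h after the low-fat meal. The interval of cldnb (0.37 to 1.79) overlapped those of cldnh (-0.56 to 0.84) and cldnc (-0.50 to 0.90), and the difference between neighbours was not tested. On chromosome 23, krt5, krt8 and krt18 lie within 10280085 to 10457982. The transcripts of 8 members overlap a gene of another name, namely cldn5a, cldn5b, cldn10b, cldn12, cldn15b, krt15 and both krt17 rows. How reads were assigned to strands or to overlapping genes is not given in the sources used here, so these values are uncertain.

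**Figure D5:**
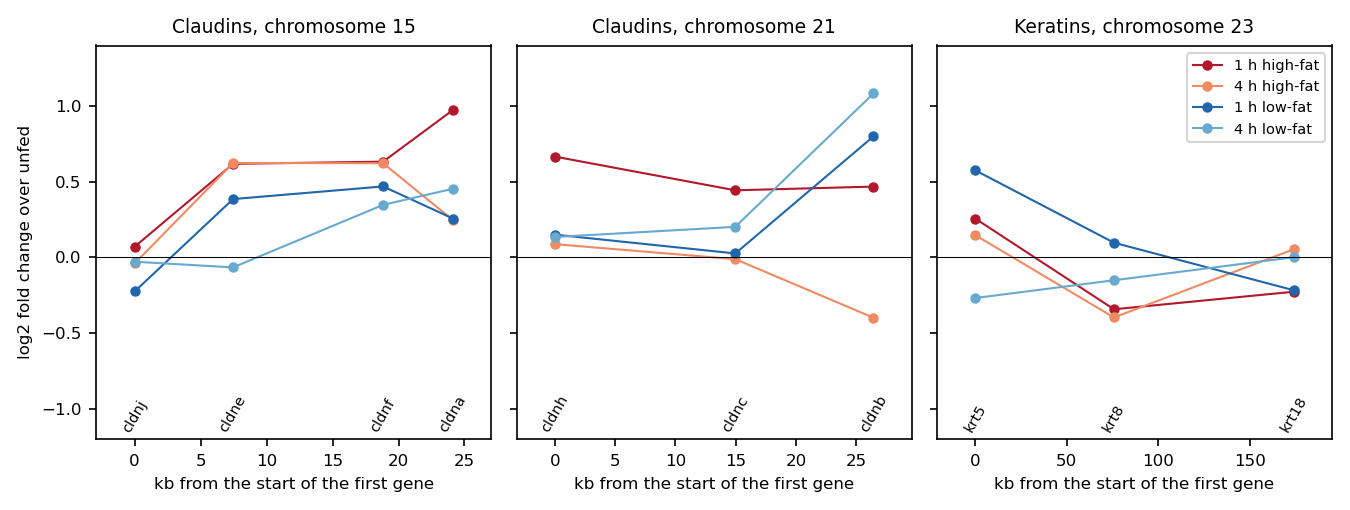
Log2 fold change over unfed larvae against the distance in kb from the start of the first gene, for neighbouring claudins on chromosomes 15 and 21 and keratins on chromosome 23. Lines join the genes of 1 comparison; cldnb reaches 1.08 at 4 h after the low-fat meal and cldnh and cldnc have 0.14 and 0.20, with intervals (not drawn) that overlap that of cldnb.

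Other junction genes, from a list of adherens junction and polarity proteins, were also uncalled, with 0 of 40 measured in each comparison of the authors' deposited table and medians between -0.01 and 0.04. At an unadjusted p under 0.05 edgeR gave 3, 2, 1 and 0 of them in the authors' deposited table (high-fat 1 h and 4 h, low-fat 1 h and 4 h). In the same order, 3.73%, 1.36%, 4.06% and 0.444% of all genes were called, and 14.5%, 7.77%, 14.2% and 2.55% had such an unadjusted p. Of 12 other desmosome and hemidesmosome genes 1 passed: itga6b, an integrin of hemidesmosomes, rose by 1.80 at 1 h after the low-fat meal in the authors' deposited table (adjusted p = 1.8e-04). It had -0.01 at 4 h, a difference between times of -1.81 (adjusted p = 1.7e-04). Its paralog itga6a, in the same list, had -0.69 at 1 h after the low-fat meal and did not pass. Brush border genes lay above 0 for 15 of 17 at 1 h after the high-fat meal (median 0.35) in the authors' deposited table. At 4 h after it they did so for 12 of 17 (median 0.20). After the low-fat meal 12 of 17 lay above 0 at 1 h (median 0.26) and 12 of 17 at 4 h (median 0.11). Of all 12828 genes 6257, 6574, 6724 and 6878 lay above 0, in the same order. Calls were made for 2 of the 17 listed genes, both lower after the high-fat meal, and for 0 after the low-fat meal. After the high-fat meal 1 was called at 1 h and 1 at 4 h, against 3.73% and 1.36% of all genes. By the authors' deposited table mtus1a fell by 1.52 at 1 h (adjusted p = 0.0040). Its place in the brush border was not checked here. The lactase gene lct fell by 1.34 at 4 h (adjusted p = 0.030) after 0.73 at 1 h in the authors' deposited table.

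Some filament genes outside the naming rule passed. By the authors' deposited table cyt1l, a type I keratin gene, fell by 1.38 at 1 h after the high-fat meal (adjusted p = 0.012) and had 0.75 at 1 h after the low-fat meal. The difference between meals of -2.14 passed (adjusted p = 0.0067). Its relative cyt1 had -1.10 (adjusted p = 0.073) and 0.58 in the authors' deposited table, and that difference of -1.68 did not pass (adjusted p = 0.088). From 1 h to 4 h after the low-fat meal both were lower, cyt1 by a difference of -1.62 (adjusted p = 0.0011) and cyt1l by -1.31 (adjusted p = 0.022). Of the 11 other filament genes in that list, cyt1l was the only one called in a comparison with unfed larvae. Among 31 further genes that the authors' deposited table annotates as intermediate filament, cyt1l included, 1 was called at 1 h after the high-fat meal. At 4 h 0 of them were called after either meal, against 1.36% (high-fat) and 0.444% (low-fat) of all genes. At 1 h after the low-fat meal 3 of them were called in the authors' deposited table, against 4.06% of all genes. These were wu:fb15e04 (1.58), zgc:136930 (1.33) and zgc:110712 (-1.44), the last of which overlaps krt15.

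Markers of other tissues in the same pools are given beside these values. Of genes listed for the dissected organs, fabp2 (enterocytes) had 1043 CPM, fabp10a (hepatocytes) 950 and ela2l (exocrine pancreas) 4176 in the authors' deposited table. Levels ranged widely there, from 57.3 (hp) to 11037 CPM (apobb) for hepatocytes and from 2.76 (ptf1a) to 11672 CPM (try) for exocrine pancreas. Genes listed for other tissues included mylpfa (446 CPM) and mylpfb (1.47) of skeletal muscle, and icn (128) and tp63 (7.72) of skin. Levels of different genes are not ranked, so these values do not show how clean the dissection was. Epidermal markers outside the member rule numbered 13. After the high-fat meal 7 lay above 0 at 1 h (median 0.06) and 6 at 4 h (median -0.05) in the authors' deposited table. Of all 12828 genes 6257 and 6574 did. At 1 h after the low-fat meal 12 of 13 epidermal markers lay above 0 (median 0.51) in the authors' deposited table, against 6724 of all genes. There 4 had an unadjusted p under 0.05 (30.8%, against 14.2% of all genes). Called were 1 marker at 1 h after the low-fat meal, against 4.06% of all genes, and 1 at 1 h after the high-fat meal, against 3.73%. They were foxi3a (1.25, adjusted p = 0.036, at 1.68 CPM) and cyt1l, which was lower. At 4 h 0 epidermal markers were called after either meal. At 4 h after the low-fat meal 10 of 13 lay below 0 (median -0.10), against 5950 of all genes. The difference between these times had a median of -0.63, and 4 of the 13 passed: foxi3a (-1.97), a factor of skin ionocytes, col17a1a (-1.36), a hemidesmosome collagen of basal skin, and the cyt1 genes above. Of the 8 keratins 6, both krt17 rows among them, had the lower value at 4 h in the same pair of groups, with a median difference of -0.27. The keratins krt1-19d (0.71) and krt18 (0.22) had the higher value, and 0 of the 8 passed. Both krt17 rows overlap cyt1, so the keratins and the epidermal markers may share reads and are not independent. Between meals at 1 h, 10 of 13 epidermal markers had the smaller value after the high-fat meal (median -0.38, 1 passed). So did 6 of the 8 keratins (median -0.35, 0 passed), again with both krt17 rows among them. Skeletal muscle markers lay below 0 for 28 of 29 genes at 1 h and at 4 h after the high-fat meal (medians -0.70 and -1.02), with 3 and 6 called lower in the authors' deposited table. Of all 12828 genes 6571 and 6254 lay below 0, and 3.73% and 1.36% were called in either direction. After the low-fat meal the medians of the muscle markers were 0.24 and -0.06 with 0 called. At each time 2 of them had an unadjusted p under 0.05 in the authors' deposited table, against 14.2% and 2.55% of all genes. Enterocyte markers had medians of 0.29 and -0.08 after the high-fat meal and 0.48 and 0.07 after the low-fat meal, with 2, 1, 3 and 0 of 19 called higher. Of all genes 3.73%, 1.36%, 4.06% and 0.444% were called in either direction. Of 9 duct, 18 hepatocyte and 13 pancreas markers 0 were called in any comparison of the authors' deposited table. At an unadjusted p under 0.05, edgeR gave at most 1 gene of each of these lists in a comparison. The part of tissue makeup in the junction and keratin values was not tested.

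The level filter left out 9 named genes. Just above it stood cldna (1.49 CPM) and marveld3 (1.75 CPM), and just below it marveld1 (0.633 CPM) and jupb (0.494 CPM). The others left out were krt1-c5, cldn19, cldn7a, cldng, cldn10l2, cldnd and cldn10a, with averages from 0.478 down to 0.0527 CPM. Of these 9 genes 0 passed in the authors' deposited table. The lowest adjusted p was that of cldn10a at 1 h after the low-fat meal (log2 fold change 4.88, adjusted p = 0.092, at 0.0527 CPM).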

How the data were processed

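Per the labels' protocols, poly(A) RNA libraries were sequenced as reads of 50 bases. The authors' tools were TopHat2 and edgeR, with build Zv9, per the submitters' processing notes, which give no versions; how reads were counted is not given in the sources used here. Deposited was a table with 56754 transcripts and 0 columns of single samples, whose log2 fold changes, average log2 CPM, p-values and adjusted p-values are the authors', per the file headers. Each deposited adjusted p-value was checked against Benjamini-Hochberg over every row, and matched. The count tests planned for samples could not be run. Starts in the table count from 0 and are given here from 1.

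With Python 3.11.15, pandas 2.3.3 and SciPy 1.17.1, the transcript with the highest average stood for each symbol, kept at log2 CPM of at least 0. A standard error was implied by each fold change and the normal score of its p-value (at scores below 0.5, the median of the expression bin). Differences of meals combined both squared errors, and differences of times used their mean. Spread between replicates of each gene is not in these errors, and p-values measure the spread that the authors' model assigned to 3 pools a group. Genes described in full were those with the highest averages in each role, the largest changes in each comparison and those past a threshold; the remaining members are named to account for them. Members and lists were chosen with earlier results of these data known. 55 of 56 symbols matched a RefSeq symbol or synonym (assembly GRCz12tu), used for names only. No sequences are printed. Alternatives covered thresholds, the adjustment, the level filter, the transcript, joined symbols and the errors.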

Additional observations from a re-analysis of the deposited data

Results flagged for a closer look

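A test of the difference itself separated 2 times or 2 meals for 1 member and 6 of 86 other genes, 8 results in all. The 86 are listed for other junctions, filaments, the brush border and skin. Between times after the high-fat meal 1 of 56 members and 1 of the 86 passed, against 6.38% of all genes. After the low-fat meal 0 and 5 passed, against 1.89%. Between meals 0 members and 1 listed gene passed at 1 h, against 0.85%. At 4 h 0 of either passed, against 0.468%. Enterocyte and skeletal muscle markers that passed the same test are given as counts beside the member differences. pkp2 was lower at 4 h than at 1 h after the high-fat meal (-1.29). So was lct (-2.06, adjusted p = 1.3e-06). After the low-fat meal itga6b (-1.81), foxi3a (-1.97), cyt1 (-1.62), col17a1a (-1.36) and cyt1l (-1.31) were lower at 4 h than at 1 h. At 1 h cyt1l also differed between meals (-2.14). All are differences of the authors' log2 fold changes, with errors that do not hold each gene's own spread between pools.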

How the results depend on the processing

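Of the recomputed counts and medians, 65 kept their value within the limits set and 7 did not. The limits were a factor of 1.5 for counts and the typical implied error of 1 gene for medians, wide beside medians so close to 0. Where 0 members were called, a stricter threshold, a higher level filter or leaving out the joined symbol can only give 0. The tally therefore does not measure how robust the result is. At an adjusted p under 0.10, 2 members were called at 1 h after the high-fat meal (pkp1b and evpla) and 1 at 1 h after the low-fat meal (evpla), against 5.32% and 5.57% of all genes, and 1 (evpla) differed between times after the low-fat meal. Adjusting over the 12828 genes in place of all transcripts called 1 member at 1 h after the high-fat meal (pkp1b, adjusted p = 0.040), against 4.61% of all genes. A filter at a log2 CPM of 2 left 3 members with an unadjusted p under 0.05 at 1 h after the high-fat meal, and 0 that differed between times after it, because pkp2 (1.96) falls below that filter. With no filter 4 members had an unadjusted p under 0.05 at 1 h after the low-fat meal. Using the second transcript of each symbol, or without the joined symbol, 0 members were called in each comparison with unfed larvae. No paired analysis was possible because only the authors' comparisons, without sample columns, were used; leaving out replicates was not run for the same reason. Depth per sample is unknown.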
